A study of Homo sapiens with 36 samples.

Results

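Box C/D snoRNAs other than U3 and U8 were followed in human HCT116 cells, a colon carcinoma line, after removal of DIS3. The set holds 139 genes of 59607 features in the total RNA tables: every gene whose symbol starts with SNORD, apart from SNORD118 and the SNORD3 genes, with at least 100 counts summed over the 24 total RNA libraries. Of these, 126 carry that symbol in GENCODE 29 and 13 only in a newer table of names. A further 31 SNORD genes had 1 to 99 counts and 132 had 0. SNORD48 with 115 counts was the last gene inside the threshold, and SNORD84 with 96 was among the first outside it.

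The tested cells were 1 CRISPR clone in which DIS3, the RNA exosome subunit with both exo- and endonuclease activity, carries an auxin-inducible degron (DIS3-AID), in HCT116 cells that constitutively express TIR1, the plant auxin receptor. The control cells were HCT116 cells that express TIR1 and have no degron on DIS3. Both were given 500 uM auxin for 1 h or were left untreated, which makes the 4 groups DIS3-AID auxin, DIS3-AID untreated, control auxin and control untreated. Ribosomal RNA-depleted total RNA from the chromatin and from the cytoplasm, and polyA-selected RNA from the cytoplasm, gave 3 libraries per group, 36 in all. Because the cytoplasm triplicates were technical, each p-value covers no more than the variation among these libraries.

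Total counts per library ran from 50278746 to 139011514 in chromatin, from 59450421 to 122574347 in the cytoplasm and from 25859633 to 33068609 in polyA RNA. The DIS3 transcript in the cytoplasm had 45.2 to 46.9 CPM in DIS3-AID auxin cells, 47.1 to 52.1 CPM in DIS3-AID untreated cells, 90.1 to 96.5 CPM in control auxin cells and 87.6 to 92.4 CPM in control untreated cells. CPM are counts per 1000000 counts of a library, its total adjusted by edgeR's TMM factor, and the transcript level says nothing of the protein that the degron removes. The 5 epithelial markers summed to 2550 to 2620 CPM in the cytoplasm of DIS3-AID auxin cells, 2770 to 2880 CPM in DIS3-AID untreated, 2170 to 2310 CPM in control auxin and 2250 to 2340 CPM in control untreated cells. EPCAM (−0.40), CDH1 (−0.38) and CLDN4 (−0.46) fell on the log2 scale after auxin in DIS3-AID cells (edgeR adjusted p at most 0.00338), and KRT8 and KRT18 did not pass. The 5 blood markers summed to at most 0.582 CPM in any library of the total RNA, and PTPRC, their defining gene, was at or near 0. The 5 fibroblast markers summed to at most 18.1 CPM. The 3 nuclear transcripts MALAT1, NEAT1 and KCNQ1OT1 summed to 835 to 935 CPM in the cytoplasm of DIS3-AID auxin cells, against 869 to 988 CPM in DIS3-AID untreated cells. MALAT1 sets this sum and changed by −0.08 (edgeR adjusted p = 0.28), whereas NEAT1 rose by 0.71 (adjusted p = 1.42e-08) and KCNQ1OT1 by 0.49 (adjusted p = 0.000297), in the same libraries in which many members rose. The part of nuclear RNA in the members' rise in the cytoplasm was not tested.

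Box C/D snoRNAs are short, stable nuclear RNAs that assemble with fibrillarin, NOP56, NOP58 and SNU13 and guide methylation of ribosomal and spliceosomal RNA. Their box C and box D, near the 2 ends, fold together and are bound by the protein core. Most human members lie in introns of other genes, are freed when the host pre-mRNA is spliced and its intron opened, and are trimmed by exonucleases back to the protein-bound ends. The RNA exosome takes part in such trimming and in the decay of RNA that is not protected.

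Members of the same host gene often differed after auxin, and the sequences below were printed because they form such pairs. They were chosen after their values were seen, as were SNORD53, SNORD45B, SNORD45C, SNORD101, SNORD100, SNORD96A, SNORD111, SNORD1B, SNORD1C, SNORD20, SNORD82, SNORD43 and the SNORD58 genes wherever they are named. The sequences are the GENCODE 29 transcripts on hg38, 5′ to 3′ on the sense strand. Capitals mark TGATGA (box C) where it lies within the first 15 bases and CTGA (box D) where it lies within the last 15. In WDR43, which encodes a small-subunit processome protein, SNORD53B (plus strand, chr2:28927983-28928060) lies downstream of SNORD53 (chr2:28927067-28927144). In RABGGTB, a subunit of the enzyme that adds lipids to Rab proteins, the order is SNORD45C (plus strand, chr1:75787072-75787150), SNORD45A (chr1:75787889-75787972) and SNORD45B (chr1:75789477-75789548). In SF3B3, a splicing factor, SNORD111B (plus strand, chr16:70529509-70529588) precedes SNORD111 (chr16:70538005-70538098). In RPS12, a ribosomal protein gene, SNORD101 (plus strand, chr6:132815307-132815379) precedes SNORD100 (chr6:132816802-132816877). In RACK1, a ribosome-bound scaffold protein, SNORD95 (minus strand, chr5:181243312-181243379) precedes SNORD96A (chr5:181241814-181241892).
SNORD53B: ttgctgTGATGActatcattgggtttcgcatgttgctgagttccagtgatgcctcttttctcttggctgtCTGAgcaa
SNORD53: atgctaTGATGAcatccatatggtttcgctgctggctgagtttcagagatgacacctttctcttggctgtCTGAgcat
SNORD45A: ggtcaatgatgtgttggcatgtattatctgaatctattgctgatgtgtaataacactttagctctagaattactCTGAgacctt
SNORD45B: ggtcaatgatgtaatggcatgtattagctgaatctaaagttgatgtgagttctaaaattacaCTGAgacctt
SNORD45C: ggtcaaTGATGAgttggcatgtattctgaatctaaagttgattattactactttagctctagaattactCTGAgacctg
SNORD111B: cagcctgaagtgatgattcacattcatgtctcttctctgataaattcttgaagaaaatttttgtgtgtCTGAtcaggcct
SNORD111: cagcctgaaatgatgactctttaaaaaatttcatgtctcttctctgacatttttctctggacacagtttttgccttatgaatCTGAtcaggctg
SNORD101: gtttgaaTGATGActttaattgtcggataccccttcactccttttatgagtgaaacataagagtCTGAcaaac
SNORD100: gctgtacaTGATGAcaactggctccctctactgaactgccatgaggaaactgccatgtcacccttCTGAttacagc
SNORD95: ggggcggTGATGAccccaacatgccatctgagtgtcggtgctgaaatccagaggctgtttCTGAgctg
SNORD96A: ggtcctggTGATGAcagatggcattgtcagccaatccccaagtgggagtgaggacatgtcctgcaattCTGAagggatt

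SNORD53B and SNORD53 share 61 of 78 aligned bases (78.2%), SNORD45A and SNORD45C share 71 of 84 (84.5%), SNORD45A and SNORD45B share 63 of 84 (75%), and SNORD111B and SNORD111 share 67 of 94 (71.3%). SNORD101 with SNORD100 (52.6%) and SNORD95 with SNORD96A (53.2%) are less alike. Over all 139 members, box C was found in that window in 51.8%, box D in 87.8% and both in 51.1%. Both were found in 0 of 147 box H/ACA genes and in 1 of 1878 microRNA genes of the annotation, searched on the sense strand in windows of the same length. A missing match says only that these letters are not in the window, as in SNORD45A, where the box C letters differ.

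The members had a median length of 79 bases and lay on 22 chromosomes in 74 different hosts. By GENCODE 29, 60 lay wholly in an intron, 75 overlapped an annotated exon of another gene on the same strand and 4 had no host. Protein-coding hosts held 111 members, ribosomal protein genes 38 of these, and non-coding hosts 24. The files' counting appeared to give a read to every feature it overlaps, since the nested SNORD38B genes had near-identical counts in every library. A member's count therefore includes fragments of its host's pre-mRNA, intron or exon, and the mature snoRNA cannot be told apart from them. Among the members 15 pairs were at least 85% identical, of which SNORD62A and SNORD62B had the same sequence, so the split of reads within such a pair is uncertain.

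In the cytoplasm of DIS3-AID cells, auxin raised 43 of the 117 members tested and lowered 3 (edgeR quasi-likelihood test, adjusted p under 0.05 over 23027 features), while 21.1% of all features rose and 13.2% fell. The median log2 change was 0.26 over the members and −0.05 over all features. Of the 43, 33 rose at least 2-fold, and the 4 largest rises were 9.79-fold to 12.5-fold. In control cells given auxin, 0 of 117 members passed in either direction, 0 by DESeq2 as well, and 9 had an unadjusted p under 0.05, where 0.0217% of all features rose and 0.0261% fell. The 22 members that were too low for a test in the cytoplasm are not part of these counts. A scarce member could reach the counts needed for a test through the DIS3-AID auxin libraries alone. Scarce members that stayed low were left out, so the share that rose depends in part on this requirement.

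**Figure D1:**
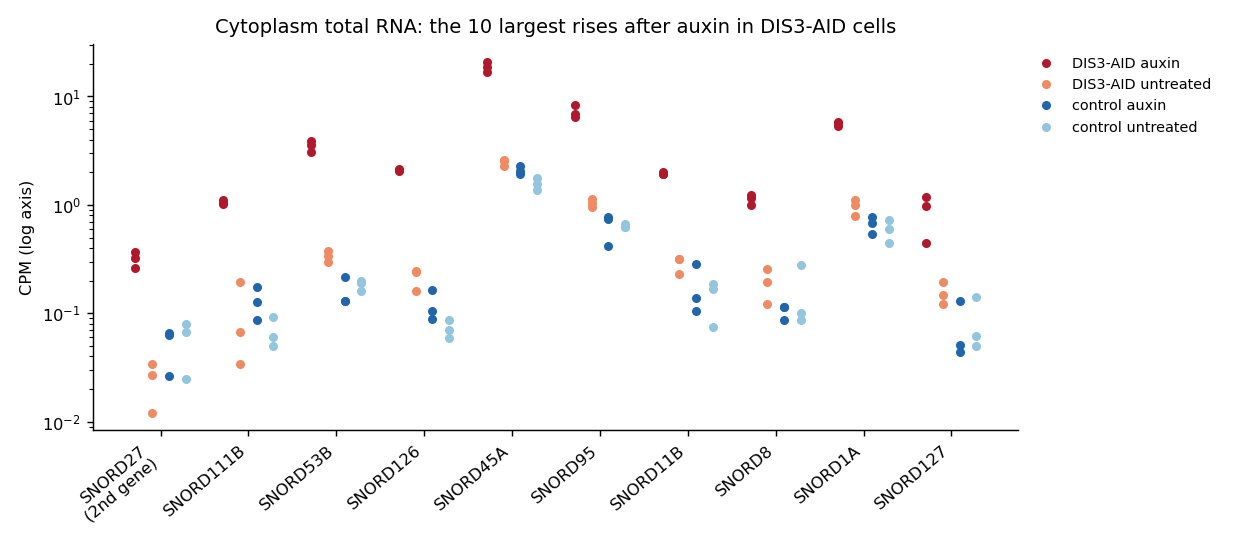
CPM of the 10 members with the largest rise in the cytoplasm (log axis), each point 1 library, 3 libraries per group, DIS3-AID auxin leftmost and control untreated rightmost for each member. The 3 DIS3-AID auxin libraries sit above the other 9 libraries for each of the 10 members, with SNORD45A at 16.7 to 21.0 CPM and SNORD53B at 3.1 to 3.89 CPM.

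SNORD45A had the highest level after auxin among the 10 members with the largest rise. It had 18.7, 21.0 and 16.7 CPM in the DIS3-AID auxin libraries, 2.28, 2.54 and 2.6 CPM in DIS3-AID untreated, 2.26, 1.93 and 2.05 CPM in control auxin and 1.76, 1.57 and 1.36 CPM in control untreated libraries. The auxin libraries of the degron cells lay far above the other 9, among which the 3 DIS3-AID untreated libraries lay above the 6 control libraries. The log2 change was 2.93 ± 0.10 (SE; edgeR adjusted p = 6.38e-14). SNORD45A, like SNORD45B and SNORD45C, overlaps an annotated exon on the same strand. Its host RABGGTB rose by 0.67 (edgeR adjusted p = 1.31e-08). SNORD45C, upstream in the same host, rose by 0.68 ± 0.11 (adjusted p = 7.23e-05). SNORD45B, downstream, had 0.811, 0.696 and 0.712 CPM in DIS3-AID auxin and 0.704, 0.569 and 0.485 CPM in DIS3-AID untreated libraries. The ranges overlapped slightly, and its change of 0.34 ± 0.18 did not pass (adjusted p = 0.158).

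SNORD53B had 3.89, 3.56 and 3.1 CPM in DIS3-AID auxin, 0.375, 0.339 and 0.297 CPM in DIS3-AID untreated, 0.131, 0.131 and 0.215 CPM in control auxin and 0.159, 0.189 and 0.198 CPM in control untreated libraries. No library of another group came within reach of the auxin-treated degron cells. Its log2 change was 3.37 ± 0.16 (edgeR adjusted p = 2.7e-12), and that of its host WDR43 was 0.05 (adjusted p = 0.527). SNORD92, in the same host, rose by 2.15 ± 0.25 (adjusted p = 9.55e-07). SNORD53 had 0.287, 0.259 and 0.278 CPM in DIS3-AID auxin, 0.227, 0.145 and 0.297 CPM in DIS3-AID untreated libraries, and these overlapped (0.32 ± 0.34, adjusted p = 0.488).

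SNORD95 had 6.43, 8.35 and 6.96 CPM in DIS3-AID auxin, 1.04, 1.13 and 0.957 CPM in DIS3-AID untreated, 0.734, 0.415 and 0.772 CPM in control auxin and 0.671, 0.628 and 0.619 CPM in control untreated libraries. The auxin-treated degron cells again stood apart from all other libraries (2.79 ± 0.15, edgeR adjusted p = 1.24e-11). SNORD95 overlaps an annotated RACK1 exon, and RACK1 itself changed by −0.06 (adjusted p = 0.267). SNORD96A, further downstream in RACK1, changed by −0.20 ± 0.12 (adjusted p = 0.197).

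SNORD111B in SF3B3 averaged 1.05 ± 0.06 CPM in DIS3-AID auxin and 0.098 ± 0.084 CPM in DIS3-AID untreated cells (SD, n = 3), a log2 change of 3.40 ± 0.33 by edgeR (adjusted p = 9.63e-08), whereas SNORD111 changed by 0.64 ± 0.32 (adjusted p = 0.139). SNORD101 in RPS12 had 9.15, 9.03 and 8.07 CPM in DIS3-AID auxin and 2.1, 1.89 and 1.89 CPM in DIS3-AID untreated libraries, and rose by 2.16 ± 0.10 (adjusted p = 4.05e-12). SNORD100, in a later intron of RPS12, changed by −0.35 ± 0.21 (adjusted p = 0.218). A like pair lay in NCL, the nucleolin gene, where SNORD20 rose by 1.81 ± 0.11 (adjusted p = 1.33e-10) and SNORD82 changed by −0.43 ± 0.54 (adjusted p = 0.566). In the long non-coding RNA SNHG16, SNORD1A rose by 2.54 ± 0.14 (edgeR adjusted p = 2.77e-11), while SNORD1B (0.23) and SNORD1C (−0.18) did not pass. SNORD1A and SNORD1C overlap annotated exons. The difference between members of 1 host was not itself tested.

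The remaining large rises were of scarcer members. SNORD126, in CCNB1IP1, averaged 2.10 ± 0.04 CPM in DIS3-AID auxin and 0.215 ± 0.048 CPM in DIS3-AID untreated cells (SD, n = 3; 3.29 ± 0.18, edgeR adjusted p = 3.39e-11). SNORD8, which overlaps an annotated exon and lies in the chromatin remodeller gene CHD8, rose by 2.54 ± 0.29. It averaged 1.13 ± 0.12 CPM in DIS3-AID auxin and 0.190 ± 0.067 CPM in DIS3-AID untreated cells. SNORD127, in PRPF39, averaged 0.865 ± 0.376 CPM in DIS3-AID auxin and 0.154 ± 0.037 CPM in DIS3-AID untreated cells and rose by 2.48 ± 0.39. The largest fitted rise was that of a second SNORD27 gene (ENSG00000252128) without a host, at 0.366, 0.259 and 0.326 CPM in DIS3-AID auxin and 0.0341, 0.0121 and 0.027 CPM in DIS3-AID untreated libraries. The untreated values stand for a handful of reads or fewer, so its log2 change of 3.64 ± 0.46 is imprecise. This gene reached the counts needed for a test only through its DIS3-AID auxin libraries.

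The 3 members that passed as lower moved little. SNORD21, in RPL5, had 0.316, 0.324 and 0.326 CPM in DIS3-AID auxin and 0.591, 0.351 and 0.512 CPM in DIS3-AID untreated libraries, and fell by 0.59 on the log2 scale (edgeR adjusted p = 0.0472). The control untreated libraries lay at 0.302, 0.239 and 0.235 CPM, below both. A second SNORD22 gene in SNHG1 changed by −0.52 (adjusted p = 0.0437) and SNORD49B by −0.16 (adjusted p = 0.039). With library sizes alone as scaling none of the 3 passed, and each lost its call in at least 3 of the 6 fits that left out 1 library.

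Members in the same host were set against each other over all hosts. Of 30 hosts with at least 2 members tested in the cytoplasm, 5 had all their tested members higher, 15 had some and 10 had none. Of the 43 members that rose, 41 had a tested host. That host rose in 9 cases and fell in 3, where 21.1% of all features rose and 13.2% fell. A host was counted once for each such member, NOP58 for 3 of them, so these cases are not all separate genes. The median host log2 change was −0.02, against −0.09 for the hosts of the other members. NOP58, a core protein gene of these same particles, was a host that rose (0.45, edgeR adjusted p = 1.61e-06), and 3 of its 4 members rose more: SNORD11B by 2.74, SNORD11 by 1.65 and SNORD70 by 1.57. NOP58 did not pass in chromatin (0.01, adjusted p = 0.881) or in polyA RNA (0.04, adjusted p = 0.684). None of the tested members in GNL3 (4), NOP56 (4), RPL4 (3) or RPL23A (3) passed in either direction, 1 of 4 in RPL13A rose (SNORD32A, 0.41), and of the 7 in SNHG1 none rose. Each of these hosts holds 4 or more members.

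**Figure D2:**
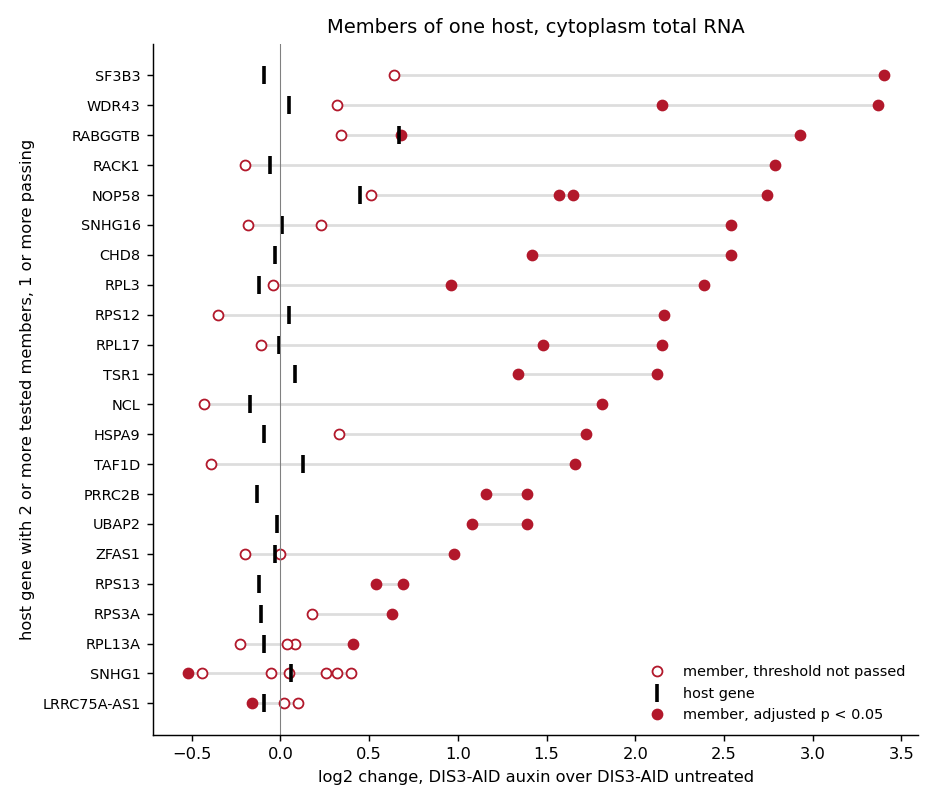
Log2 change in the cytoplasm (DIS3-AID auxin over DIS3-AID untreated) of members in the 22 hosts with 2 or more tested members of which at least 1 passed in either direction, ordered by their highest member. Filled circles are members with adjusted p under 0.05, open circles are the other tested members and black bars are the host genes, which lie between −0.17 and 0.67 while members reach 3.4.

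Position class gave different counts, to be read beside the 21.1% of all features that rose and the 13.2% that fell. Of 46 tested members wholly in an intron, 23 rose and 0 fell, with a median log2 change of 0.67. Of 69 that overlapped an annotated exon, 18 rose and 3 fell, with a median of 0.06. Both tested members without a host rose, the second SNORD27 gene being tested only through its DIS3-AID auxin libraries. In protein-coding hosts 37 of 92 rose (median 0.33), in non-coding hosts 4 of 23 (median 0.08), and in ribosomal protein genes 9 of 35 (median 0.05). The shares that rose among exon overlaps, in non-coding hosts and in ribosomal protein genes lay near that of all features.

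The changes in the cytoplasm differed with the distance from a member's 3′ end to the next exon of its host. This measure and its limits of 100 and 200 bases were chosen after the values had been seen, so it is a description with no test. It was measured first for members wholly in an intron, to the nearest annotated exon: the 23 that rose had a median of 704 bases (100 to 3802), and the 23 others had a median of 88 (59 to 47014). Of these others 7 lay over 200 bases away, among them SNORD19 (1276 bases, log2 change −0.23), SNORD125 (841, 0.18) and a SNORD39 gene (ENSG00000264379; 47014, 0.07). It was then measured on the principal transcript of protein-coding hosts, which placed 86 of the 111 members there. Of 24 members with 100 or fewer bases, 0 rose and 1 fell, with a median log2 change of −0.11. Of 18 with over 100 and up to 200 bases, 4 rose (median 0.12), and of 33 with more than 200 bases, 24 rose (median 1.57). Over all features 21.1% rose and 13.2% fell. Median levels in DIS3-AID untreated cells were 0.27, 0.468 and 0.458 CPM in these 3 distance classes, so the near members were also the scarcest. The median change of their hosts was −0.12, −0.11 and −0.01. The hosts themselves differed between the classes. In untreated control cells their median log2 ratio of chromatin over cytoplasm was −4.50, −4.54 and −0.75 (29, 19 and 37 members). The part of the kind of host in the difference by distance was not tested.

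The pairs printed above followed the distances in part. SNORD53B lies 1518 bases, SNORD45A 1186, SNORD111B 1156, SNORD101 1081 and SNORD95 966 bases before the next exon, and SNORD100 lies 82 and SNORD96A 174 bases before it. In WDR43 SNORD92 at 320 bases rose by 2.15, and in RABGGTB SNORD45C at 346 bases rose by 0.68. Farther from the next exon than these, SNORD53 at 424 bases in WDR43 and SNORD45B at 403 in RABGGTB did not pass as higher. SNORD111 at 224 bases in SF3B3 did not pass as higher either. With SNORD53, SNORD45B and SNORD111, 9 members placed beyond 200 bases on a principal transcript did not pass as higher. The others were SNORD17 (5672 bases, log2 change 0.16), SNORD70B (4158, 0.51), SNORD73B (742, 0.18), SNORD23 (565, −0.11), SNORD63B (312, 0.33) and SNORD86 (218, −0.17). On the principal transcripts the 4 risers at over 100 and up to 200 bases were SNORD10, SNORD14A, SNORD14B and SNORD32A, and they rose by 0.69 at most. By the first measure, to the nearest annotated exon, SNORD62B at 193 bases rose by 1.39 and SNORD60 at 100 bases by 0.93. Neither was placed on a principal transcript.

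**Figure D3:**
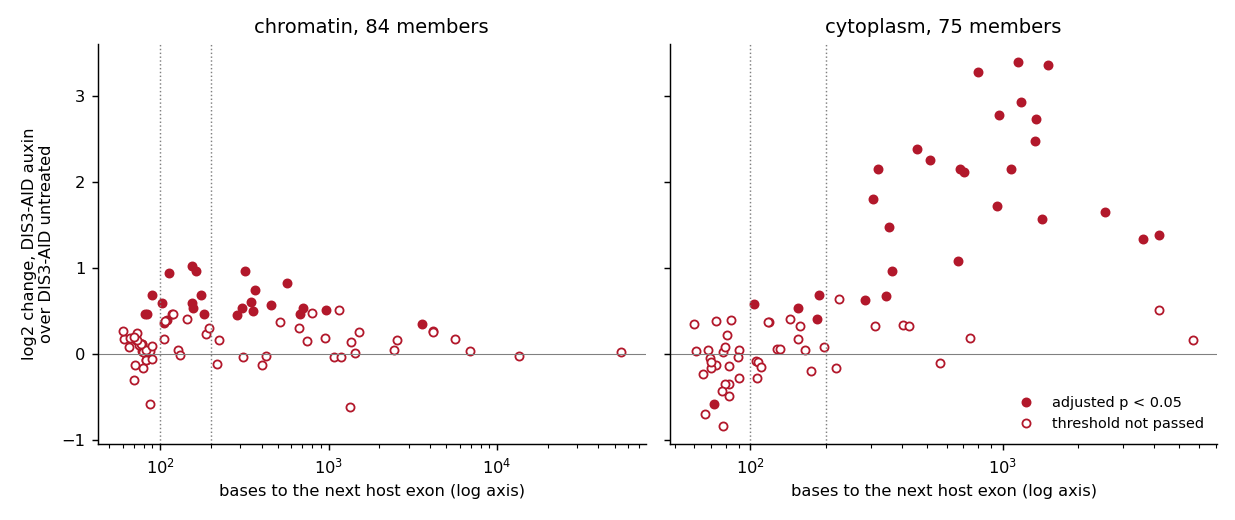
Log2 change (DIS3-AID auxin over DIS3-AID untreated) against the number of bases from the member's 3′ end to the next exon of the host's principal transcript (log axis), in chromatin (84 members) and in the cytoplasm (75 members). Filled circles have adjusted p under 0.05, and dotted lines mark 100 and 200 bases. In the cytoplasm no member within 100 bases rose, and 24 of 33 beyond 200 bases did.

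In chromatin, which holds nascent and retained RNA, few rises were large. Auxin raised 37 of 136 tested members in DIS3-AID cells and lowered 0 (edgeR, adjusted p under 0.05), while 11.0% of 24966 features rose and 9.54% fell. The unadjusted p was under 0.05 for 48 of the 136 in either direction, and DESeq2 also called 0 lower. The median log2 change was 0.17 over the members and 0.00 over all features, and only 3 of the 37 rose 2-fold or more. In control cells given auxin, 3 members rose and 4 fell, where 9.02% of all features rose and 7.97% fell. By distance, 3 of 28 members within 100 bases rose in chromatin, 11 of 19 at over 100 and up to 200 bases and 12 of 37 beyond 200 bases. Of the 35 risers with a tested host, that host rose in 13 cases and fell in 0, a host again being counted once for each such member.

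SNORD14B, in RPS13, showed the clearest rise in chromatin among members with a host. It had 8.04, 8.68 and 8.8 CPM in DIS3-AID auxin, 4.08, 4.02 and 4.49 CPM in DIS3-AID untreated, 4.64, 3.93 and 3.9 CPM in control auxin and 4.06, 4.01 and 4.0 CPM in control untreated libraries. Only the degron cells given auxin left a common level near 4 CPM (1.02 ± 0.09, edgeR adjusted p = 1.77e-07). SNORD14 genes encode a guide that is also needed to process the small-subunit rRNA precursor, known from yeast. SNORD35A rose by 0.96 ± 0.09 (adjusted p = 6.9e-07), SNORD92 by 0.97 ± 0.17, SNORD4B by 0.94 ± 0.15, SNORD23 by 0.83 ± 0.14, SNORD83A by 0.74 ± 0.13, and SNORD96A and SNORD42B by 0.69 each. SNORD36, a gene without a host that has this symbol only in the newer table, rose by 1.09 after auxin in DIS3-AID cells and by 1.08 after auxin in control cells, and the first lost its call in 4 of the 6 fits that each left out 1 of its libraries.

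Among the 7 members linked to rRNA processing, 3 rose in the cytoplasm, where 21.1% of all features rose: SNORD13, SNORD14A (0.69) and SNORD14B (0.54). In chromatin SNORD13, SNORD14B and SNORD14E (0.54 ± 0.09, edgeR adjusted p = 0.000349) rose. SNORD14C (0.24) and SNORD14D (0.03), which share the host HSPA8 with SNORD14E, and SNORD22 (0.01) did not pass. In control cells auxin lowered SNORD14C, SNORD14D and SNORD14E in chromatin by 0.31, 0.57 and 0.39. HSPA8, a chaperone gene, had an auxin effect 0.60 higher in DIS3-AID than in control chromatin (adjusted p = 0.000333), and 5 of the 7 members passed as higher for that difference, where 8.54% of all features did.

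SNORD13 has its own promoter and no host gene, and it guides acetylation of small-subunit rRNA. In chromatin it had 18.0, 21.4 and 21.5 CPM in DIS3-AID auxin, 6.86, 9.11 and 6.9 CPM in DIS3-AID untreated, 13.8, 8.18 and 10.2 CPM in control auxin and 9.83, 8.94 and 7.01 CPM in control untreated libraries. In the cytoplasm the corresponding values were 28.0, 30.5 and 27.5 CPM in DIS3-AID auxin, 5.47, 5.77 and 4.96 CPM in DIS3-AID untreated, 5.33, 4.2 and 4.18 CPM in control auxin and 6.36, 5.67 and 5.92 CPM in control untreated libraries. The auxin-treated degron cells lay above every other library in both fractions, by 1.41 ± 0.18 in chromatin (edgeR adjusted p = 9.81e-05) and 2.40 ± 0.09 in the cytoplasm (adjusted p = 1.41e-13) against DIS3-AID untreated cells. In polyA RNA it had 18, 10 and 20 counts in DIS3-AID auxin libraries and 0 to 2 counts in each of the other 9, a log2 change of 3.85 ± 0.68 (edgeR adjusted p = 7.27e-05). There SNORD13 reached the counts needed for a test only through the DIS3-AID auxin libraries. SNORD13 is 95.2% identical to the copy SNORD13P3 and 88.5% to SNORD13E, so reads may be shared among them.

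**Figure D4:**
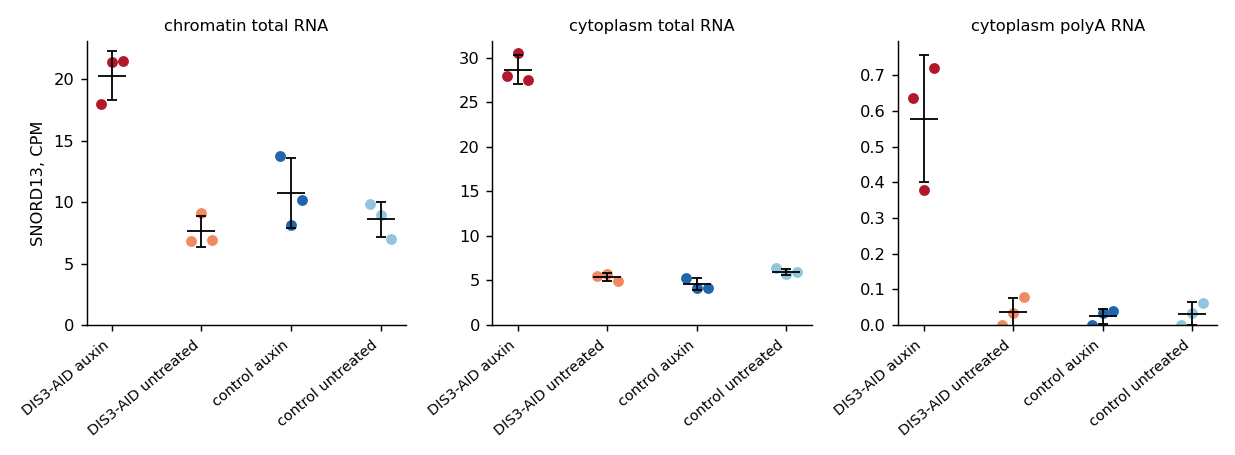
SNORD13 in chromatin total RNA, cytoplasm total RNA and cytoplasm polyA RNA (CPM, each panel with its own axis from 0). Coloured points are libraries, and black bars are the mean and SD of 3. DIS3-AID auxin libraries reach 18.0 to 21.5 CPM in chromatin, 27.5 to 30.5 CPM in the cytoplasm and 0.379 to 0.722 CPM in polyA RNA.

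The auxin effect in DIS3-AID cells was set against that in control cells. In the cytoplasm it was higher for 35 of 117 members and lower for 1 (edgeR interaction term), where 16.1% of all features were higher and 3.31% lower, and the members' median difference was 0.17 against −0.04 for all features. In chromatin it was higher for 20 of 136 and lower for 1, where 8.54% of all features were higher and 9.2% lower. Beyond 200 bases from the next exon, 22 of 33 members had a higher auxin effect in the cytoplasm of DIS3-AID cells (median difference 1.63), against 1 of 24 within 100 bases (−0.02). These counts use the same DIS3-AID cytoplasm libraries whose values were seen before the distance limits were chosen, so they are not separate evidence.

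DIS3-AID and control cells also differed before auxin. In the cytoplasm of untreated cells 35 of 117 members were higher in DIS3-AID cells and 1, SNORD104, was lower (−0.69), where 9.67% of all features were higher and 12.4% lower. The members' median log2 difference was 0.46, against −0.01 over all features. SNORD126 was the most raised (1.58 ± 0.32, edgeR adjusted p = 0.00172), and SNORD1C (1.20), SNORD53 (1.19), SNORD19 (1.16) and SNORD14A (1.14) followed. SNORD53 and SNORD1C, which did not pass as higher after auxin, were thus higher in the clone before it, though SNORD53 lost that call in 4 of the 6 fits that each left out 1 of these libraries. The difference by distance was 0.37 (4 of 24 higher) within 100 bases, 0.44 (3 of 18) at over 100 and up to 200 bases and 0.73 (17 of 33) beyond 200 bases. In chromatin the untreated clone had 3 members higher and 24 lower (median −0.12), where 15.2% of all features were higher and 17.4% lower, and SNORD36 (−1.10), SNORD56B (−1.04), SNORD97 (−0.85), SNORD14C (−0.77) and SNORD18B (−0.69) were lowest. These comparisons share their untreated DIS3-AID libraries with the auxin comparisons, and line and clone cannot be told apart with 1 clone.

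In untreated control cells most members were higher in chromatin. Relative to each fraction's own RNA, 120 of 138 members were higher in chromatin and 9 in the cytoplasm (edgeR over both fractions), where 46.2% of all features were higher and 44.0% lower. The median log2 ratio was 2.28, against 0.10 over all features. Without TMM scaling both medians move up, to 2.94 and 0.76, so the level is read relative to the other features. SNORD56B (5.71), SNORD38A (5.32), a SNORD39 gene (ENSG00000263723, 5.15), SNORD57 (5.05) and a SNORD63 gene (ENSG00000252112, 4.75) had the highest chromatin ratios. By contrast the 7 U3 and U8 genes had a median of −3.93, and 112 box H/ACA genes one of 1.81.

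Per length, SNORD49B had the highest level in chromatin (337.0 CPM per kilobase in control untreated cells), ahead of SNORD26 (145.0), SNORD49A (129.0), SNORD17 (114.0) and SNORD2 (106.0). A second SNORD39 gene (97.6), SNORD25 (89.3), SNORD86 (79.0), SNORD27 (77.8) and SNORD28 (77.5) followed. In the cytoplasm SNORD86 led (363.0), then SNORD49B (310.0), SNORD58B (272.0), SNORD25 (180.0), SNORD13 (73.2), SNORD4A (45.7), SNORD96A (38.8), SNORD65 (37.6), SNORD45C (35.1) and SNORD43 (31.9). Neighbours in this order, such as SNORD96A and SNORD65, were not tested against each other. SNORD86, SNORD49B, SNORD58B and SNORD25 overlap annotated exons and had 24563, 11118, 12325 and 5194 counts summed over the polyA libraries. The part of spliced host RNA in these levels was not tested.

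The members higher in the cytoplasm were led by SNORD58B (−3.35), SNORD36A (−2.57), SNORD125 (−2.33), SNORD86 (−2.20) and SNORD23 (−1.34). SNORD86 had 69.8 to 72.4 CPM in the polyA RNA of DIS3-AID auxin cells and 70.2 to 75.1 CPM in that of control untreated cells. SNORD58B had 31.8 to 39.7 CPM in DIS3-AID auxin and 33.1 to 36.8 CPM in control untreated polyA RNA. Both overlap exons of their hosts NOP56 and RPL17, and neither rose in the cytoplasm after auxin (−0.17, edgeR adjusted p = 0.0553, and −0.11, adjusted p = 0.322). The part of spliced host RNA in their counts was not tested.

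The response to auxin in DIS3-AID cells differed between the fractions. It was larger in chromatin for 10 of 138 members and larger in the cytoplasm for 28, where 22.1% of all features were higher and 11.0% lower. The median difference was 0.10 for the members and 0.16 for all features, and leaving out TMM scaling moved the median of all features by −0.33 and the members' counts to 3 larger in chromatin and 36 larger in the cytoplasm. SNORD53B (−2.94 ± 0.25, edgeR adjusted p = 4.84e-12), SNORD127 (−2.92), SNORD45A (−2.78), the second SNORD27 gene (−2.71) and SNORD111B (−2.71) leaned most to the cytoplasm. SNORD45A shows it plainly: its chromatin level was 4.18, 3.35 and 3.92 CPM in DIS3-AID auxin and 4.72, 3.07 and 3.98 CPM in DIS3-AID untreated libraries, which overlap. SNORD23 (1.12), SNORD35A (1.09), SNORD96A (1.07), SNORD21 (0.93) and SNORD14B (0.66) leaned to chromatin. Beyond 200 bases from the next exon 19 of 37 members leaned to the cytoplasm, against 0 of 29 within 100 bases. This split again rests on the cytoplasm libraries seen before the distance limits were chosen. Of the members that rose, 20 rose in both fractions, which is 54.1% of the chromatin list and 46.5% of the cytoplasm list. Over all features, 1566 rose in both, which is 57.1% of those that rose in chromatin and 32.3% of those that rose in the cytoplasm.

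**Figure D5:**
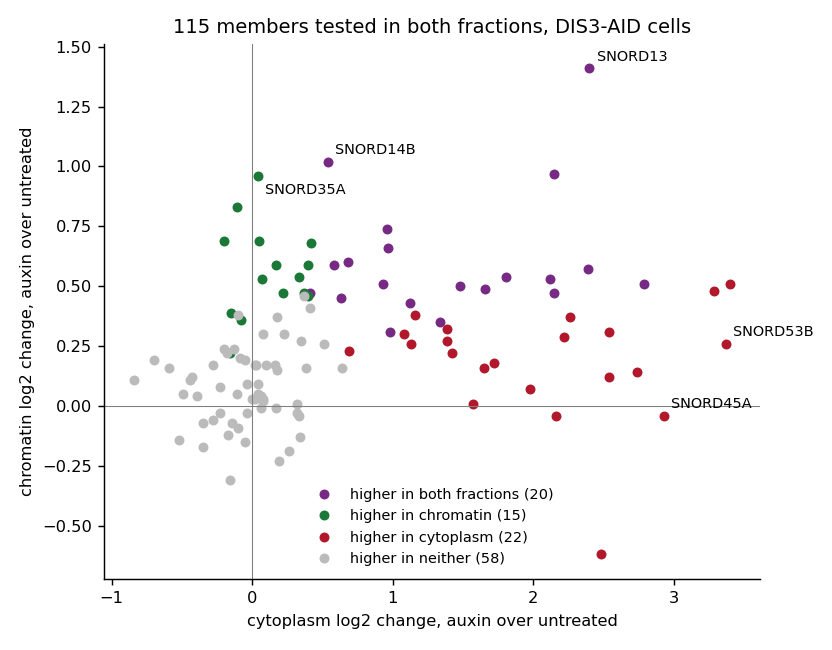
Log2 change after auxin in DIS3-AID cells for the 115 members tested in both fractions, cytoplasm on the horizontal and chromatin on the vertical axis. Colours mark members that passed as higher in both fractions (20), in 1 of them or in neither. SNORD13 is highest in chromatin at 1.41, and SNORD45A lies at −0.04 in chromatin and 2.93 in the cytoplasm, SNORD53B at 0.26 in chromatin and 3.37 in the cytoplasm.

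Few members were measurable in polyA RNA, where 52 were tested. In DIS3-AID cells 3 rose and 1 fell after auxin (edgeR), where 13.2% of all features rose and 3.88% fell. The 3 that rose reached the counts needed for a test only through their DIS3-AID auxin libraries. They were thus tested because they were high there, and their number depends on this requirement. The 3 were SNORD13, SNORD1A (2.65 ± 0.55, adjusted p = 0.000541) and SNORD121B (1.5 ± 0.47, adjusted p = 0.0252; not passed by DESeq2), and SNORD55 fell by 0.42. SNORD1A had 0.848, 0.417 and 0.614 CPM in DIS3-AID auxin and 0.142, 0.103 and 0.0393 CPM in DIS3-AID untreated libraries, with no overlap. It had 2, 4 and 4 counts in control auxin and 0, 2 and 0 counts in control untreated libraries. The auxin effect in DIS3-AID minus control cells did not pass for SNORD1A (0.42 ± 2.28, edgeR adjusted p = 0.96) or SNORD13 (4.25 ± 1.67, adjusted p = 0.15). In control cells 0 members passed in polyA RNA by edgeR or DESeq2 and 6 had an unadjusted p under 0.05, where 0.012% of all features rose and 0.036% fell. Before auxin SNORD4A alone was higher in DIS3-AID cells (0.98, edgeR adjusted p = 0.00749) and 0 members were lower, where 6.22% of all features were higher and 5.65% lower. The auxin effect was higher in DIS3-AID than in control cells for SNORD2 alone (2.08; not passed by DESeq2) and lower for 0 members, where 4.85% of all features were higher and 0.985% lower.

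The genes that build and process these particles changed little. Of the 4 core protein genes in the cytoplasm, NOP58 rose (0.45) and NOP56 fell by 0.12 (edgeR adjusted p = 0.0376), while FBL and SNU13 did not pass. In polyA RNA NOP58 (0.04) did not pass. Of 11 assembly factor genes 0 rose and 2 fell, ZNHIT3 by 0.23 and NOP53 by 0.16. Of 14 genes for release and trimming 0 rose and 3 fell, PARN (a deadenylase that trims RNA 3′ ends) by 0.14, TENT4B (a poly(A) polymerase that tags nuclear RNA for decay) by 0.17 and RBM7 (a subunit of an exosome adaptor) by 0.17. Over all features in the cytoplasm 21.1% rose and 13.2% fell. In polyA RNA PARN (−0.06), TENT4B (−0.03), RBM7 (−0.11), ZNHIT3 (0.01) and NOP53 (−0.07) did not pass. In chromatin NOP56 fell by 0.18, RPAP3 by 0.26 and PARN rose by 0.31, and the others of the 3 lists did not pass. Over all features in chromatin 11.0% rose and 9.54% fell. Of the orphan and imprinted genes listed, 1 was a member: a gene on chromosome 9, in an intron of MVB12B, that has the symbol SNORD116 only in the newer table (427 counts). It changed by 0.02 in chromatin (adjusted p = 0.974) and was too low for a test in the cytoplasm.

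Other snoRNAs were counted in the same libraries. In the cytoplasm, of 95 tested box H/ACA genes 57 rose after auxin in DIS3-AID cells (median 0.97), and 7 of 7 U3 and U8 genes rose (median 2.50), against 43 of 117 box C/D members (median 0.26). In chromatin 23 of 111 box H/ACA genes (median 0.17) and 6 of 7 U3 and U8 genes (median 2.13) rose, against 37 of 136 members (median 0.17). Over all features 21.1% rose in the cytoplasm and 11.0% in chromatin. The differences between these snoRNA classes were not tested.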

How the data were processed

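Per the labels, cells were fractionated, total RNA was made into stranded ribo-depleted libraries and polyA RNA into stranded mRNA libraries, and both were sequenced on a NovaSeq. The deposited values are counts of reads per feature on hg38, 1 table per library, and the submitters' processing notes name STAR 2.7.3a, Cufflinks 2.2.1 and featureCounts 2.0.0. The counting parameters are not given in the sources used here. Symbols and positions came from GENCODE 29 and a newer table of names, and the union of both was used after both member counts (126 by GENCODE 29 alone, 139 by the union) had been seen. The members, lists and comparisons were chosen with earlier results of these data known.

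From the counts, edgeR 4.0.16 (R 4.3.3, limma 3.58.1) with TMM scaling, filterByExpr (min.count 10) and robust quasi-likelihood tests was run on all features of each data set (4 groups of 3) and on the 24 total RNA libraries jointly, and p-values were adjusted by Benjamini and Hochberg's method, with 0.05 as the limit. The scripts were tested on simulated counts. Common biological coefficients of variation were 6.59% in the cytoplasm, 6.53% in chromatin and 6.07% in polyA RNA. Members named were the 10 largest rises and 5 largest falls per data set after auxin in DIS3-AID cells, past the threshold and with no overlap between auxin and untreated libraries, the 5 largest either way in other comparisons, the 10 highest levels per kilobase, the rRNA processing list and host clusters of 4 or more, of which 1 is not reported here; other names were chosen after their values were seen. Alternatives were DESeq2 1.42.0, library sizes alone, no filter, the replicate number as a block, and leaving out each library. Sequences and distances were computed in Python 3.11.15. SNORD genes with no row in the tables, such as those in GAS5, are not analysed here. The host is the shortest same-strand gene that contains the member, and a host's count can include its members' reads.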

Additional observations from a re-analysis of the deposited data

Results flagged for a closer look

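The auxin effect differed between DIS3-AID and control cells by the interaction term of the edgeR fit for the members that follow (log2 difference). In the cytoplasm it was 3.91 for the second SNORD27 gene, 3.59 for SNORD53B, 3.18 for SNORD8, 2.79 for SNORD95, 2.79 for SNORD13 and −1.0 for SNORD21. In chromatin it was 1.09 for SNORD4B, 1.08 for SNORD13, 0.97 for SNORD14B, 0.94 for SNORD14E, 0.83 for SNORD35A and −0.78 for SNORD13E. In polyA RNA it was 2.08 for SNORD2. SNORD13E, SNORD21 and SNORD2 each lost the call by DESeq2.

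The auxin response of DIS3-AID cells differed between chromatin and cytoplasm, as chromatin minus cytoplasm, by 1.12 for SNORD23, 1.09 for SNORD35A, 1.07 for SNORD96A, 0.93 for SNORD21 and 0.66 for SNORD14B. It was −2.94 for SNORD53B, −2.92 for SNORD127, −2.78 for SNORD45A, −2.71 for the second SNORD27 gene and −2.71 for SNORD111B. SNORD14B and SNORD21 lost this call with library sizes alone.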

How the results depend on the processing

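No member that passed changed sign under any setting run, except that SNORD104 (−0.65) and SNORD55 (−0.32), higher in the cytoplasm than in chromatin, came to 0.02 and 0.34 with library sizes alone. Members that did not pass could turn: in chromatin after auxin in DIS3-AID cells, with library sizes alone, SNORD22 came to −0.04, SNORD14D to −0.02 and SNORD116 to −0.03. In the cytoplasm of DIS3-AID cells 43 members were higher after auxin, 47 with library sizes alone, 41 by DESeq2, 44 without a filter, and 38 to 43 without 1 library. The count lower, 3, became 0 with library sizes alone, 1 without a filter and 0 to 2 without 1 library (0 without DIS3-AID auxin replicate 2 or 3, 1 without DIS3-AID untreated replicate 1 or 2). In control cytoplasm 0 were lower, and 1 without a filter. In chromatin of DIS3-AID cells 37 were higher (25 to 32 without 1 library) and 0 lower, which became 1 with library sizes alone, 1 without a filter and 0 to 1 without 1 library. In control chromatin 3 were higher (1 to 3 without 1 library, 1 without control auxin replicate 1 or 2 or control untreated replicate 2 or 3) and 4 lower, 8 without a filter and 2 to 4 without 1 library (2 without control untreated replicate 1 or 3). For DIS3-AID against control cells untreated, the counts without 1 library were 25 to 31 higher and 0 to 1 lower in the cytoplasm, 2 to 3 higher and 15 to 28 lower in chromatin, with 15 in place of 24 without DIS3-AID untreated replicate 2, and 0 to 1 higher in polyA RNA. For the auxin effect in DIS3-AID minus control cells, the 1 lower in the cytoplasm became 0 with library sizes alone, DESeq2 or no filter (0 to 1 without 1 library). In chromatin 13 to 23 were higher without 1 library, 13 in place of 20 without DIS3-AID auxin replicate 3, and the 1 lower became 0 by DESeq2, without a filter and with the block (0 to 1 without 1 library). In polyA RNA the 3 higher became 7 without a filter (2 to 4 without 1 library), the 1 lower became 0 with library sizes alone and by DESeq2 (0 to 1), and the 1 higher for the auxin effect became 0 by DESeq2 and without a filter (0 to 1). The 10 members with a larger response in chromatin became 3 with library sizes alone, and 8 to 12 without 1 library. The 28 with a larger response in the cytoplasm became 36 with library sizes alone, and 26 to 28 without 1 library.

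Same-numbered libraries showed at most weak shared deviation over all features (r from −0.028 to 0.108 for auxin in the cytoplasm of DIS3-AID cells, from −0.174 to −0.022 in chromatin). The labels state no pairing, and these correlations alone cannot show whether libraries of 1 number share a batch. With the replicate number as a block, 44 members were higher and 4 lower in the cytoplasm of DIS3-AID cells and 35 higher in chromatin, and 2 in place of 1 were lower in untreated DIS3-AID cytoplasm. Low counts limit the 22 members that were not tested in the cytoplasm and the 87 not tested in polyA RNA.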
